A study of Mus musculus with 4 samples.

Results

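The transcription factors that direct intestinal progenitors into the secretory lineage were followed across 4 sorted populations of mouse intestinal tumour cells. The 10 genes were chosen by name (Atoh1, Spdef, Gfi1, Bhlha15, Creb3l1, Foxa1, Foxa2, Foxa3, Klf4 and Prdm8), with no measured value in the rule. Earlier results of these data were known when they were chosen. They are 10 of the 22911 genes named on the arrays. They have 11 probes, 1 per gene except 2 for Gfi1. EpCAM+ epithelial cells of the tumours were sorted on Lgr5, a receptor of stem cells, and on IL17RB, the cytokine receptor that the design text gives as the tuft marker. The populations, with 1 array each, were double positive (Lgr5+ tuft marker+), Lgr5 single positive (Lgr5+ tuft marker-), tuft single positive (Lgr5- tuft marker+) and double negative (Lgr5- tuft marker-) cells. All 4 came from animals of the genotype Lgr5CreERT2/+; Ctnnb1lox(ex3)/ox(ex3), collected on day 14 after tamoxifen was given. In this model a tamoxifen-dependent Cre recombinase, driven from the Lgr5 locus, removes an exon of the beta-catenin gene Ctnnb1 that its degradation needs. The allele and an altered copy of Lgr5 are shared by all 4 populations, the marker-negative ones included. The number of animals behind each sort, and the part of the intestine, are not given in the sources used here.

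In the intestine, progenitors freed from Notch signalling switch on Atoh1, a basic helix-loop-helix activator needed for goblet, Paneth and enteroendocrine cells. Gfi1 and Spdef act after Atoh1, the former in holding back the enteroendocrine programme and the latter in the maturation of goblet and Paneth cells. Bhlha15 (also called Mist1) and Creb3l1 enlarge the secretory apparatus, Foxa factors open chromatin and act in goblet and enteroendocrine cells, and Klf4 is a zinc finger factor of goblet cells and of cells leaving the cycle.

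A level here is the log2 of the processed signal minus the 75th percentile of the array's own spots, so that 0 is that percentile. A difference is between levels of the same probe on 2 arrays, and ± gives the error of the scanner software carried through to it. With 1 array per population there was no replicate spread and no test, so every difference describes these arrays, whose number limits the precision. The share of spots well above background ran from 60.2% to 69.0% per array, no spot was saturated, and all 4 arrays lay on 1 slide read in 1 scan. Of the sort genes, Lgr5 and Il17rb followed the labels. Lgr5 stood at -0.80 and -0.81 in double positive and Lgr5 single positive cells, did not reach well above background in tuft single positive cells, and stood at -3.20 in double negative cells, 5.23-fold under its Lgr5+ counterpart. Il17rb was 6.72-fold higher in the tuft marker+ cells within Lgr5+ and, as a bound, at least 13.9-fold within Lgr5-. Epcam stood at 5.01, 5.21, 4.50 and 5.55 in double positive, Lgr5 single positive, tuft single positive and double negative cells. It was 1.15-fold lower in tuft marker+ cells within Lgr5+ and 2.06-fold lower within Lgr5-. Ctnnb1 stood between 4.37 and 5.22, and since the position of its probe relative to the removed exon is not given, it checks nothing about the allele. Markers of cell types outside the epithelium were unequal between the arrays. The 8 stromal markers averaged -0.34, -2.35, 1.69 and -2.20 in double positive, Lgr5 single positive, tuft single positive and double negative cells, and the 10 macrophage markers 2.12, -0.68, 2.95 and -0.51.

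Within both tuft classes most members stood higher in Lgr5+ than in Lgr5- cells. Prdm8 and Bhlha15 were well above background in both Lgr5+ populations and in neither Lgr5- population, and Foxa2 was 2.92-fold and 4.64-fold higher in Lgr5+ cells. The tuft marker sort separated the members less, apart from Foxa3, which was 2.33-fold and 5.52-fold lower in tuft marker+ cells. Atoh1 itself differed by less than 2-fold in each of the 4 comparisons on this scale. In sorted bulk RNA, fewer cells of a type and less RNA per cell cannot be told apart.

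The bases upstream of 4 members are shown because their levels bear on the results: Atoh1 as the head of the lineage, Spdef as a factor acting after it, and Bhlha15 and Prdm8 because both were detected in Lgr5+ and not in Lgr5- cells. Each line holds the 250 bases before the RefSeq start of the gene on the GRCm38.p6 assembly, 5′ to 3′ on the gene's strand, at chr6:64728875-64729124 (plus strand) for Atoh1, chr17:27728952-27729201 (minus strand) for Spdef, chr5:144190036-144190285 (plus strand) for Bhlha15 and chr5:98180619-98180868 (plus strand) for Prdm8. Capitals mark a match, on either strand, to 1 of 4 motifs. They are the E-box form CAGCTG of helix-loop-helix factors, CTTTGA of TCF/LEF proteins, the forkhead motif TGTTTAC and the RBPJ motif TGGGAA of Notch signalling. Other forms of the E-box were not searched, and below the E-box means CAGCTG only.
Atoh1: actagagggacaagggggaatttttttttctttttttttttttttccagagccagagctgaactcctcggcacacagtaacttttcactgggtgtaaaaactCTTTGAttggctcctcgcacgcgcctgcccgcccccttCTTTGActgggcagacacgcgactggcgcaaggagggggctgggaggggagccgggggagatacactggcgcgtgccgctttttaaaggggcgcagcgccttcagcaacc
Spdef: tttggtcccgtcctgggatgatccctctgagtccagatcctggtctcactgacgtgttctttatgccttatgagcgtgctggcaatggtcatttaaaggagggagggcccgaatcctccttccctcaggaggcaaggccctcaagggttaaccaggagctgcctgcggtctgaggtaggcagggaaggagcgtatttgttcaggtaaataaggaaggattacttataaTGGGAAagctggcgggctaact
Bhlha15: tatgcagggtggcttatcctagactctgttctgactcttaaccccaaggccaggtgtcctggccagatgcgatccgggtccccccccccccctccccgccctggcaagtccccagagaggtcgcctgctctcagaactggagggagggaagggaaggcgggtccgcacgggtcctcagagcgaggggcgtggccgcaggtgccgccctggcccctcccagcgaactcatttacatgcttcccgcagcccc
Prdm8: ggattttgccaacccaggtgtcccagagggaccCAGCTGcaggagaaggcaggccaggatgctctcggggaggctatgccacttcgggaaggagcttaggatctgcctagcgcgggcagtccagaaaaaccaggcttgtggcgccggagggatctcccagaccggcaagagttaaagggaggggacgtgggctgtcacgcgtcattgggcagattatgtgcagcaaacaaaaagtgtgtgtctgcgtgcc
Atoh1 had 2 matches to the TCF/LEF motif, Spdef 1 to the RBPJ motif, Prdm8 1 to the E-box, and Bhlha15 none to any of the 4. Of all 32851 windows of this length, 13.8% held the TCF/LEF motif, 21.6% the RBPJ motif, 13.0% the E-box and 3.17% the forkhead motif. Over the 12 windows of 9 members (all but Creb3l1), the TCF/LEF and RBPJ motifs were in 1 each (those shown), the forkhead motif in 1 (Foxa1) and the E-box in 2 (Prdm8 and Klf4). These are matches of letters, not measured binding.

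**Figure D1:**
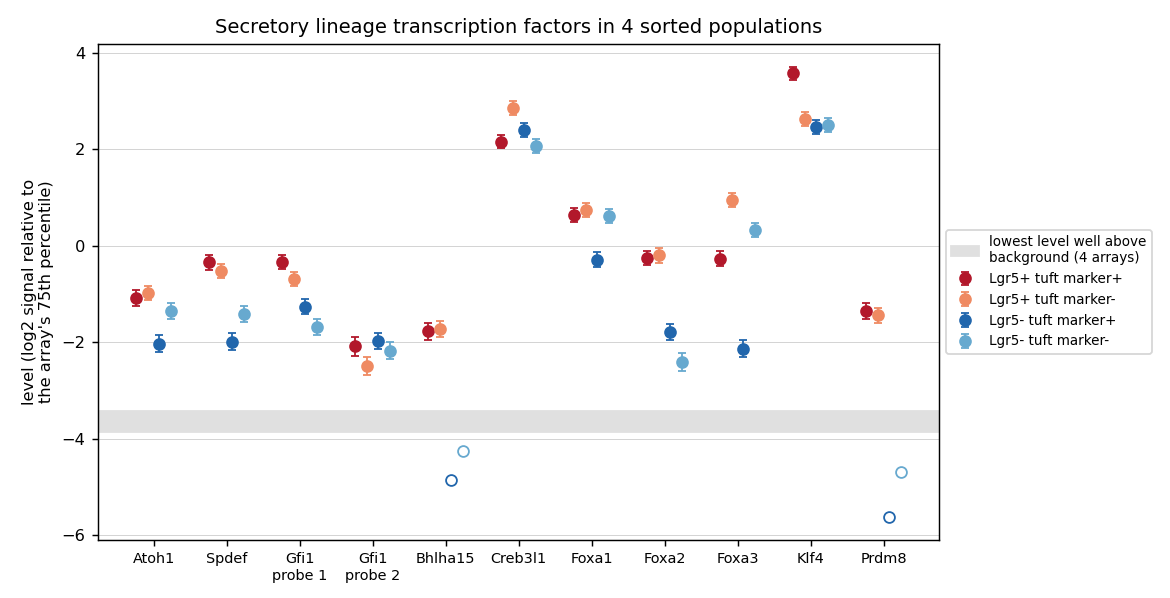
Levels of the 11 member probes (vertical axis, log2 signal relative to the array's 75th percentile) in the 4 populations, 1 array each. Bars are the scanner's error of a level, open circles were not well above background, and the grey band spans the 4 arrays' lowest levels of a probe well above background. Bhlha15 and Prdm8 have filled circles in the Lgr5+ populations and open ones in the Lgr5- populations.

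Atoh1, the activator at the head of the lineage, stood at -1.08 in double positive cells, -0.97 in Lgr5 single positive cells, -2.02 in tuft single positive cells and -1.35 in double negative cells. The tuft single positive cells were the low population, and both Lgr5+ populations were level with each other within the scanner error. The Lgr5+ cells were 1.92-fold higher within tuft marker+ (0.94 ± 0.24) and 1.30-fold higher within tuft marker- (0.38 ± 0.22). Over 8 alternatives of processing the former difference ran from 0.45 to 1.16. It passed 2-fold under scaling to the array median (1.16) and quantile normalization (1.11). Of the 17625 genes measured in the former comparison 10.2% were as high or higher, and of the 17527 in the latter 27.8%. Along the tuft marker sort Atoh1 differed by -0.11 ± 0.22 within Lgr5+ and by -0.68 ± 0.24 within Lgr5-.

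Spdef, an ETS factor of goblet and Paneth cell maturation, stood at -0.34 in double positive cells, -0.52 in Lgr5 single positive cells, -1.98 in tuft single positive cells and -1.41 in double negative cells. Both Lgr5+ levels thus lay above both Lgr5- levels. Within tuft marker+ the Lgr5+ cells were 3.12-fold higher (1.64 ± 0.24), a difference that 373 genes (2.12%) matched or passed, and within tuft marker- they were 1.86-fold higher (0.90 ± 0.22), which 8.35% of genes matched or passed. The tuft marker differences of Spdef were 0.18 ± 0.21 within Lgr5+ and -0.57 ± 0.24 within Lgr5-.

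Gfi1, a zinc finger repressor, was read by 2 probes that differed on the Lgr5 sort. The brighter probe (A_55_P1977008) stood at -0.34, -0.68, -1.26 and -1.68 in double positive, Lgr5 single positive, tuft single positive and double negative cells. It put Lgr5+ cells 1.90-fold higher within tuft marker+ (0.93 ± 0.22) and 1.99-fold higher within tuft marker- (0.99 ± 0.22). The dimmer probe (A_55_P2745645) gave -0.11 ± 0.26 and -0.31 ± 0.26 for the same comparisons. Gfi1's direction across the Lgr5 sort therefore depends on the probe. Along the tuft marker sort both probes were positive, at 0.35 ± 0.21 and 0.41 ± 0.26 within Lgr5+ and 0.41 ± 0.23 and 0.20 ± 0.25 within Lgr5-. Over 4052 genes with several probes, the median standard deviation between the differences of a gene's probes was 0.39 for the Lgr5 sort within tuft marker+ and 0.29 for it within tuft marker-.

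Bhlha15, a helix-loop-helix factor that scales up the secretory apparatus of acinar, plasma and other secretory cells, stood at -1.77 in double positive cells and -1.73 in Lgr5 single positive cells. In tuft single positive and double negative cells it was not well above background, with processed signals of 4.68 and 7.60 against 38.4 and 53.1 in the corresponding Lgr5+ cells. The Lgr5+ cells stood higher by at least 3.72-fold within tuft marker+ and by at least 3.91-fold within tuft marker-, bounds that 1.18% and 0.884% of genes matched or passed. Within Lgr5+, the tuft marker difference was -0.04 ± 0.25. Markers of acinar and plasma cells were present too. The 8 acinar enzyme genes averaged -3.21 in double positive cells, with 4 of 8 well above background, and 1.93, 2.42 and -0.00 in Lgr5 single positive, tuft single positive and double negative cells, with 8 of 8. All 8 were at least 2-fold lower in Lgr5+ cells within tuft marker+ (median -4.70), while 7 of 8 were at least 2-fold higher within tuft marker- (median 1.86). The 6 measured B and plasma cell markers had medians of -0.34 and -0.02, with 2 of 6 and 3 of 6 above 0, among them Mzb1, a chaperone of plasma cells named after its values were seen, at 0.72 and 0.87. The part of these cells in the Bhlha15 differences was not tested.

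Prdm8, a PR domain zinc finger repressor known chiefly from neurons, followed the same pattern. It stood at -1.34 in double positive cells and -1.44 in Lgr5 single positive cells, and was not well above background in either Lgr5- population, where its processed signals were 2.74 with and 5.58 without the tuft marker. The Lgr5+ cells stood higher by at least 5.03-fold within tuft marker+ and by at least 4.78-fold within tuft marker-. In these comparisons 73 genes (0.414%) and 87 genes (0.496%) were as high or higher, Prdm8 among them. The tuft marker difference within Lgr5+ was 0.10 ± 0.23.

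Detection in both Lgr5+ populations and in neither Lgr5- population was shared by 85 of 22911 genes (0.371%), 2 of them members, while the other 8 members were well above background on all 4 arrays, as were 14053 genes (61.3%). The reverse pattern held for 149 genes (0.650%) and no member. Among the 85, 4 genes stood at or above -1.77 in both Lgr5+ populations, namely Bhlha15, Prdm8, Dact2 and A430033K04Rik. That cut is the lowest Lgr5+ level of the 2 members, that of Bhlha15 in double positive cells. The place of Bhlha15 and Prdm8 among the 4 was therefore fixed beforehand. Dact2 and A430033K04Rik were chosen after their values were seen. Dact2, a Dapper family regulator of Wnt and TGF-beta family signalling, stood at -1.26 in double positive cells and -1.69 in Lgr5 single positive cells, and A430033K04Rik at -1.15 and -1.48.

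The 3 Foxa genes, forkhead factors that bind closed chromatin, differed in their profiles. Foxa2 stood at -0.24 in double positive cells, -0.20 in Lgr5 single positive cells, -1.79 in tuft single positive cells and -2.41 in double negative cells. Both Lgr5+ levels lay above both Lgr5- levels, by 2.92-fold within tuft marker+ (1.54 ± 0.22) and by 4.64-fold within tuft marker- (2.21 ± 0.24), where 102 genes (0.582%) were as high or higher. Its tuft marker differences were -0.05 ± 0.21 within Lgr5+ and 0.62 ± 0.25 within Lgr5-.

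Foxa3 instead separated the tuft marker classes. It stood at -0.26 in double positive cells, 0.96 in Lgr5 single positive cells, -2.13 in tuft single positive cells and 0.33 in double negative cells, so that both tuft marker+ populations were lower than both tuft marker- populations. The tuft marker+ cells were 2.33-fold lower within Lgr5+ (-1.22 ± 0.21) and 5.52-fold lower within Lgr5- (-2.46 ± 0.23), and 52 of 17911 genes (0.290%) were as low in the latter. Across the Lgr5 sort Foxa3 was 3.65-fold higher in Lgr5+ cells within tuft marker+ (1.87 ± 0.23) and 1.54-fold higher within tuft marker- (0.63 ± 0.21). The mean level of the 8 goblet cell markers had the same order of populations as Foxa3. It was 4.42 in Lgr5 single positive, 3.47 in double negative, 3.14 in double positive and 1.86 in tuft single positive cells. All 8 were well above background on each array. Of the single markers only Fcgbp and Retnlb had that order, both narrowly. Muc2, Tff3, Spink4 and Agr2 were higher in double positive than in double negative cells, and Clca1 and Zg16 were lowest in double positive cells. The part of the goblet markers in the Foxa3 differences was not tested.

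Foxa1 stood at 0.64, 0.75 and 0.63 in double positive, Lgr5 single positive and double negative cells, which were level within the scanner error, and at -0.28 in tuft single positive cells. That population was 1.89-fold under the double positive cells and 1.88-fold under the double negative cells, with differences of 0.92 ± 0.21 for the Lgr5 sort and -0.91 ± 0.21 for the tuft marker sort. In the other comparisons Foxa1 differed by 0.13 ± 0.21 for the Lgr5 sort within tuft marker- and by -0.12 ± 0.21 for the tuft marker sort within Lgr5+.

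Creb3l1 and Klf4 were each highest in a single population. Creb3l1, a membrane-bound factor cleaved in the Golgi that drives genes of secretory transport, stood at 2.17 in double positive cells, 2.86 in Lgr5 single positive cells, 2.39 in tuft single positive cells and 2.07 in double negative cells. Its Lgr5 single positive level was 1.73-fold above the double negative level (0.79 ± 0.20) and 1.62-fold above the double positive level. The remaining differences were -0.23 ± 0.20 for the Lgr5 sort within tuft marker+ and 0.32 ± 0.20 for the tuft marker sort within Lgr5-.

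Klf4 stood at 3.58 in double positive cells, 2.62 in Lgr5 single positive cells, 2.47 in tuft single positive cells and 2.51 in double negative cells. The double positive cells were 1.93-fold higher than Lgr5 single positive cells (0.95 ± 0.20) and 2.16-fold higher than tuft single positive cells (1.11 ± 0.20). Among the other 3 populations the differences were 0.11 ± 0.20 for the Lgr5 sort within tuft marker- and -0.05 ± 0.20 for the tuft marker sort within Lgr5-, within the scanner error.

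Counted at 2-fold, 6 of 10 members (Spdef, Bhlha15, Foxa2, Foxa3, Klf4 and Prdm8) were higher in Lgr5+ cells within tuft marker+ and none was lower, where 8.86% of 17625 genes were higher and 11.4% lower. Within tuft marker-, 3 of 10 (Bhlha15, Foxa2 and Prdm8) were higher and none was lower, where 6.44% of 17527 genes were higher and 5.24% lower. These 3 were the members past 2-fold in both comparisons, as were 0.721% of the 16497 genes measured in both. Bhlha15 and Prdm8 were measured only through their Lgr5+ levels, so in these counts and the medians below both could stand only as higher. Of the 3, Foxa2 alone was well above background on all 4 arrays. No member was lower in both, against 0.582% of genes. The median difference of the members came to 1.33 within tuft marker+ and to 0.84 within tuft marker-, and 9 of 10 and 10 of 10 were above 0. These counts take Gfi1 by its brighter probe, and its dimmer probe was below 0 in both comparisons. Over all genes the medians were -0.04 and 0.00, and 47.6% and 50.2% were above 0. After normexp, a background correction run here with a constant of 50 added to each spot, 1 member was past 2-fold in each comparison (Klf4 within tuft marker+ and Foxa2 within tuft marker-), as were 2.10% and 0.753% of all genes. Within tuft marker+ the count was 9 of 10 under scaling to the array median, where 14.7% of all genes were higher. It was 5 of 10 in the authors' scaling, where 6.01% of all genes were higher. Of genes at least 2-fold apart within tuft marker+, 43.8% were higher in Lgr5+ cells, a share that was 66.9% after scaling to the array median and 28.0% in the authors' scaling. Within tuft marker- it was 55.1%, against 41.3% after scaling to the median and 44.3% after normexp.

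**Figure D2:**
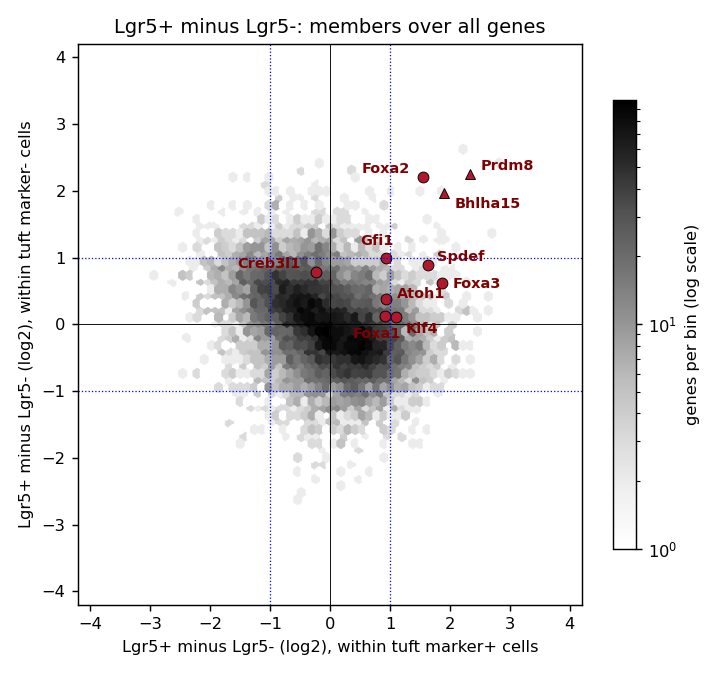
Log2 difference of Lgr5+ minus Lgr5- cells within tuft marker+ (horizontal) and within tuft marker- (vertical) cells, 1 array per population, for all genes measured in both (grey bins on a log scale, genes beyond the axes not drawn) and the 10 members (red). Triangles are members with a difference that is a lower bound and dotted lines mark 2-fold. Prdm8, Bhlha15 and Foxa2 lie past both lines at the upper right.

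The median difference of 8 epithelial markers across the Lgr5 sort came to 0.60 within tuft marker+ and to -0.35 within tuft marker-. Stromal and macrophage markers had medians of -1.68 and -0.91 within tuft marker+, and -0.14 and -0.23 within tuft marker-. For T and NK cells the marker medians came to -1.26 and 0.15, and for the acinar enzyme genes to -4.70 and 1.86. The part of these lists in the members' differences was not tested. Among lists of secretory cell types, goblet and Paneth cell markers, 8 each, had medians of 1.68 and 1.81 within tuft marker+ and of 0.84 and 1.25 within tuft marker-. Within tuft marker+, 6 goblet and 7 Paneth markers were at least 2-fold higher in Lgr5+ cells. The goblet markers Clca1 (-0.47) and Zg16 (-0.03) were below 0 there. So was the Paneth marker Pnliprp2 (-0.86), whose double positive level was not well above background. Within tuft marker-, 2 goblet and 6 Paneth markers were at least 2-fold higher and all were above 0. For enteroendocrine markers the median came to 0.32 within tuft marker+, with 3 of 9 at least 2-fold higher in Lgr5+ cells and 2 lower, and to -0.28 within tuft marker-, with none of 10 higher and 2 lower. The Paneth list includes lysozyme and defensin genes whose near-identical copies a probe may read together.

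Across the tuft marker sort, 1 of 10 members (Foxa3) was at least 2-fold lower and none was higher within Lgr5+, where 8.19% of 17501 genes were lower and 10.3% higher. Within Lgr5-, 1 of 8 members was lower (Foxa3 again) and none was higher, where 12.2% of 17911 genes were lower and 16.3% higher, and Bhlha15 and Prdm8 were not well above background on either array. The counts of lower members lie near the share over all genes. Foxa3 was lower in both comparisons, as were 1.4% of the 16757 genes measured in both, and no member was higher in both, against 4.75%. The members' median differences were -0.04 and -0.31, against 0.00 and 0.08 for all genes. Under normexp, Foxa3 differed by -0.97 within Lgr5+, short of 2-fold. Of genes at least 2-fold apart within Lgr5+, 55.8% were higher in tuft marker+ cells, against 72.5% after normexp. Within Lgr5- the share was 57.1%, against 37.0% after scaling to the median and 79.5% in the authors' scaling.

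**Figure D3:**
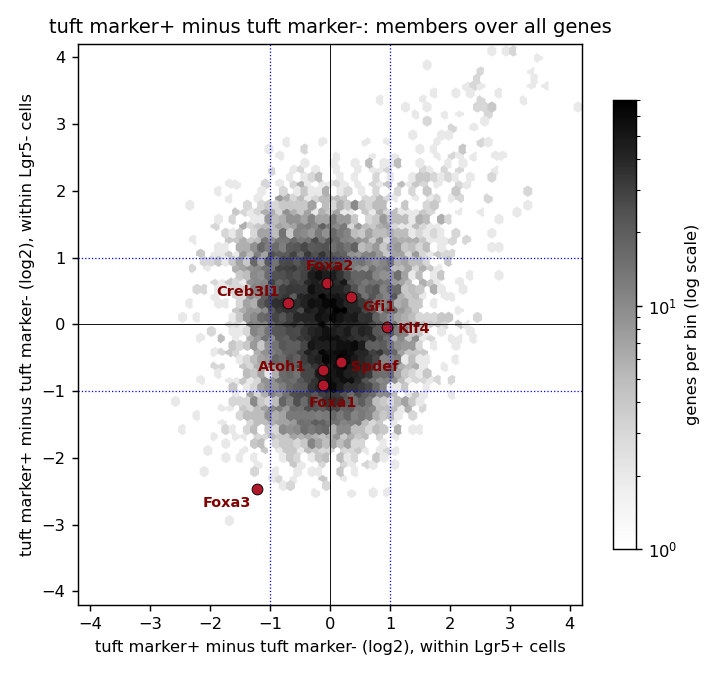
Log2 difference of tuft marker+ minus tuft marker- cells within Lgr5+ (horizontal) and within Lgr5- (vertical) cells, 1 array per population, for all genes measured in both (grey bins on a log scale, genes beyond the axes not drawn) and the 8 members measured in both (red). Dotted lines mark 2-fold, and Foxa3 lies past both at the lower left while the other members lie inside them.

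Products of secretory cells and the machinery that makes them, 28 genes of which 26 were measured in each comparison, leaned the same way as the transcription factors. This list includes every goblet marker above and the Paneth markers Ang4, Lyz1 and Mmp7, so it is not separate from those lists. Within tuft marker+, 18 of 26 were at least 2-fold higher in Lgr5+ cells and none was lower, with a median difference of 1.44, where 8.86% of all genes were higher and 11.4% lower. Within tuft marker- 6 were higher and 1 lower, with a median of 0.73, where 6.44% of all genes were higher and 5.24% lower. Past 2-fold in both were 6 genes, as were 0.721% of all genes measured in both. All of the 6 but Ern2 are goblet or Paneth markers counted above. Ang4, an antimicrobial ribonuclease of Paneth cells, was 4.52-fold and 6.11-fold higher, and Retnlb, a goblet cell product, 4.26-fold and 3.45-fold. Spink4, a goblet cell peptide, was 3.14-fold and 2.84-fold higher, and Ern2, the stress sensor of mucus-secreting cells, 6.41-fold and 2.59-fold. Across the tuft marker sort these genes were more often lower in tuft marker+ cells, with 6 of 26 at least 2-fold lower and 2 higher within Lgr5+ and 14 lower and 1 higher within Lgr5-, and with medians of -0.34 and -1.20. Of all genes, 8.19% were lower and 10.3% higher within Lgr5+, and 12.2% lower and 16.3% higher within Lgr5-. Retnlb was 3.60-fold and 4.45-fold lower in tuft marker+ cells, and Zg16, a goblet cell lectin, 4.29-fold and 2.95-fold. Spink4 was 2.61-fold and 2.88-fold lower, and Clca1, a secreted mucus protease, 4.83-fold and 2.51-fold. St6gal1, a sialyltransferase, was instead 2.59-fold and 2.30-fold higher.

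**Figure D4:**
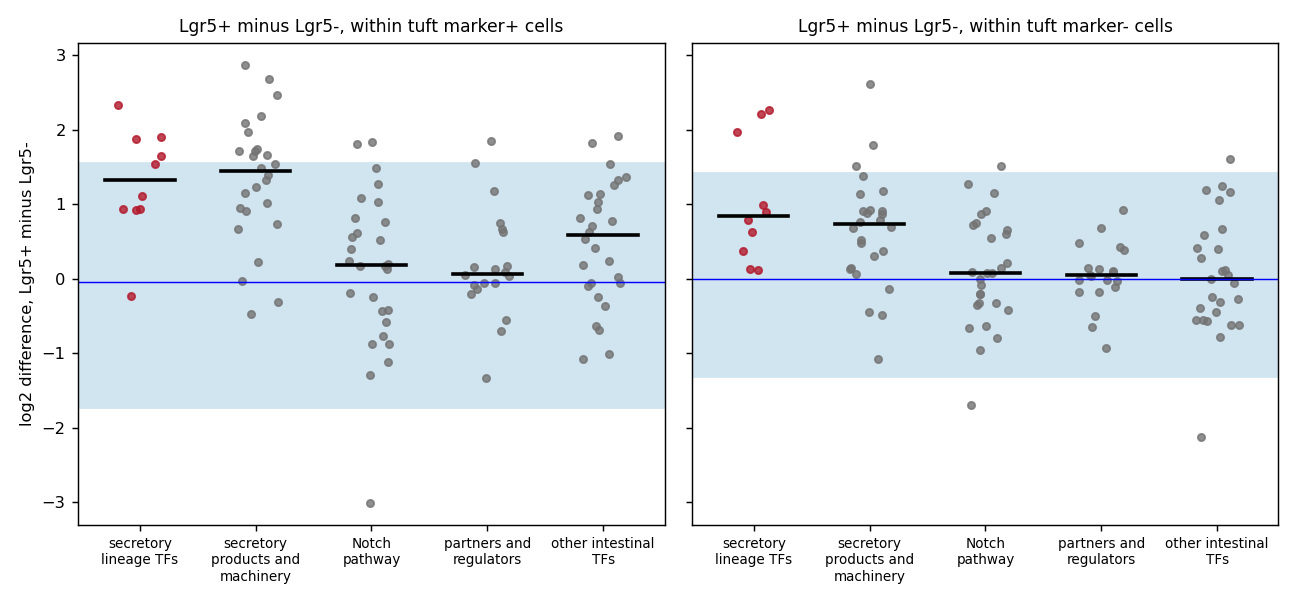
Log2 difference of Lgr5+ minus Lgr5- cells within tuft marker+ (left) and tuft marker- (right) for the members (red) and 4 lists of related genes (grey), 1 point per measured gene, where differences against a level raised to the array's floor are lower bounds. Black bars are list medians, the blue line is the median and the band the central 95% of all genes measured. The members' medians are 1.33 and 0.84 and those of the products 1.44 and 0.73, while the Notch medians are 0.19 and 0.08.

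The Notch pathway, which keeps Atoh1 off, had median differences of 0.19 and 0.08 across the Lgr5 sort. Of its 28 measured members, 6 were past 2-fold higher and 3 lower in Lgr5+ cells within tuft marker+, where 8.86% of all genes were higher and 11.4% lower. Within tuft marker- 3 were higher and 1 lower, where 6.44% of all genes were higher and 5.24% lower, and none of 27 was past 2-fold the same way in both. Across the tuft marker sort 5 of 29 were higher and 3 lower within Lgr5+, where 10.3% of all genes were higher and 8.19% lower. Within Lgr5- 7 of 28 were higher and 3 lower, where 16.3% of all genes were higher and 12.2% lower. The receptor Notch2 was 3.85-fold and 2.90-fold higher in tuft marker+ cells. Lfng, a glycosyltransferase that modifies Notch receptors, stood 8.44-fold higher within Lgr5+, against a level (-3.58) not well above background, and 3.23-fold higher within Lgr5-. Its relative Mfng stood 5.67-fold higher within Lgr5+, again against a level (-3.82) not well above background, and at least 3.40-fold higher within Lgr5-. Stromal and macrophage markers were higher in the same cells, with median differences of 2.74 and 2.93 within Lgr5+ and 3.81 and 3.82 within Lgr5-, and their part in these 3 differences was not tested.

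Partners and regulators of the members, such as E proteins, Id proteins and corepressors, had medians near 0 across the Lgr5 sort (0.06 and 0.04). There 3 of 20 were higher and 1 lower in Lgr5+ cells within tuft marker+, where 8.86% of all genes were higher and 11.4% lower. Within tuft marker- 0 of 20 were past 2-fold either way, where 6.44% of all genes were higher and 5.24% lower. Across the tuft marker sort 1 was higher and 2 were lower within Lgr5+, where 10.3% of all genes were higher and 8.19% lower. Within Lgr5- 2 were higher and 4 lower, where 16.3% of all genes were higher and 12.2% lower. Id2, which keeps helix-loop-helix activators from binding DNA, was 2.77-fold and 4.87-fold higher in tuft marker+ cells. Its relatives differed there by 0.71 and -0.43 (Id1) and by -0.71 and -0.93 (Id3) on the log2 scale. The medians of stromal and macrophage markers were higher there too, and their part in the Id2 differences was not tested. Rcor1, a corepressor that works with Gfi1, was 2.50-fold lower within Lgr5+ and at least 6.84-fold lower within Lgr5-.

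Among 30 other transcription factors of the intestine, 9 of 28 were higher and 2 lower in Lgr5+ cells within tuft marker+ (median 0.58), where 8.86% of all genes were higher and 11.4% lower. Within tuft marker- 5 of 27 were higher and 1 lower (median -0.00), where 6.44% of all genes were higher and 5.24% lower. Nkx2-2 and Insm1, both of the enteroendocrine lineage, were higher in Lgr5+ cells in both comparisons, by 2.20-fold and 3.05-fold for Nkx2-2 and by at least 2.90-fold and 2.08-fold for Insm1. Of others of that lineage, named after their values were seen, Neurog3 differed by -0.24 and 0.41 on the log2 scale and Neurod1 by at least 1.26 and by -0.62. The enteroendocrine markers had medians of 0.32 and -0.28. Maf, a leucine zipper factor, was 2.11-fold and 4.35-fold lower. Across the tuft marker sort 3 of 27 were higher and 4 lower within Lgr5+, where 10.3% of all genes were higher and 8.19% lower. Within Lgr5- 3 of 28 were higher and 12 lower, where 16.3% of all genes were higher and 12.2% lower. Pou2f3, the master regulator of tuft cells, was 2.71-fold and 6.27-fold higher in tuft marker+ cells, and Spib was higher by 3.52 and 4.47 on the log2 scale. Nkx2-2 was 3.71-fold and 2.68-fold lower there, the stem cell factor Ascl2 2.23-fold and 2.05-fold, and Prdm16 2.04-fold and 2.31-fold.

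Genes with the profile most like those of Atoh1 and Spdef were ranked by the root mean square difference over the 4 arrays, after each gene's mean over the 4 was subtracted. The ranking covered 6320 genes well above background on all 4 arrays and spanning at least 2-fold. Among the closest to Atoh1 were Csrp2 (0.046 on the log2 scale), Zcchc14 (0.063), Golga5 (0.072) and Eif2b5 (0.073), and 186 genes (2.94%) lay within 0.2. The closest to Spdef were Dnmt3b (0.043), Nat10 (0.056), Smim14 (0.082), Tspan1 and Oxld1, with 29 genes (0.459%) within 0.2. Neither factor was among the nearest to the other, since Spdef ranked 745 from Atoh1 and Atoh1 ranked 165 from Spdef. Among the 8 members well above background on all 4 arrays, the closest profiles were those of Atoh1 and Foxa1 (0.107). Both had their low point in tuft single positive cells, as did Spdef, Foxa3 and Klf4.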

How the data were processed

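RNA from 4 sorted populations was read on 4 one-colour Agilent arrays, 1 per population, after 13 ng of total RNA each had been labelled with Cy3 by a low-input kit, per the labels' protocols. Per the file headers, the deposited processed intensity had its background subtracted and its spatial trend removed, spot by spot, by Feature Extraction 12.0.3.1 with no scaling between arrays (the submitters' processing notes name 11.5.1.1), and the flags of 0 or 1 for spots well above background, saturated or outlying were set by the same software. The authors also deposited a table of intensity values, which matched the scanner's processed intensity times 1 constant per array (10.9, 7.82, 11.9 and 9.08 for double positive, Lgr5 single positive, tuft single positive and double negative cells). That table is linear and has no centring of genes. The medians of its columns were 279, 286, 365 and 253. No label states the aim of that scaling.

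From these files (Python 3.11.15, pandas 2.3.3, limma 3.58.1 in R 4.3.3 for normexp), control spots and 122, 96, 108 and 91 outlier spots were left out, the intensity was taken to log2, the array's 75th percentile was subtracted and copies of a probe were averaged. Of 56605 probes, 32994 were named through their accession and a RefSeq gene table of GRCm38.p6, giving 22911 genes, each read by whichever of its probes was brightest on average. A level below the array's floor, the lowest level of any probe itself well above background there (-3.43, -3.87, -3.67 and -3.70), was raised to it, and such differences are lower bounds given as "at least". A level above the floor was used as it stood, also where it was not well above background. A gene with several probes counted as above background if 1 of them was, and as measured in a comparison if above background on at least 1 of its arrays. The 4 comparisons use the same 4 arrays, while the 2 comparisons of each sort share none. The scanner's error, a median of 0.21 on a log2 difference, covers the reading of spots and not animals, sorts or labelling.

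The members and gene lists were chosen with earlier results of these data known. Named genes were all members with every probe, the sort genes, up to 4 genes of each list at least 2-fold apart the same way in both comparisons of a sort, and the 5 nearest profiles to Atoh1 and Spdef, of which 1 is not reported here. Alternatives were median and quantile scaling, normexp with an offset of 50, the authors' table, the mean of all probes, another detection flag, no floor, a 1.5-fold threshold and, added after the data were seen, a percentile over probes above background on all arrays. The files hold median and not mean foreground intensity, so normexp used the median. The counting script was tested on simulated data. Promoter windows came from a RefSeq table of GRCm38.p6 that held 12 windows of 9 members (none of Creb3l1).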

Additional observations from a re-analysis of the deposited data

Results flagged for a closer look

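Creb3l1 changed sign between the comparisons of each sort. Its tuft marker difference was -0.70 within Lgr5+ and 0.32 within Lgr5-, which are -1.02 apart on the log2 scale. Its Lgr5 difference came to -0.23 within tuft marker+ but to 0.79 within tuft marker-, by arithmetic of the same 4 levels also -1.02 apart. With 1 array per population the difference between these effects was not tested. Over 8 alternatives of processing the Creb3l1 difference for the Lgr5 sort within tuft marker+ ran from -0.40 to -0.007. For the tuft marker sort within Lgr5- it ran from 0.09 to 0.62.

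The pancreatic acinar enzyme genes, markers of another tissue, changed sign by more. Their median tuft marker difference was -4.05 within Lgr5+ and 2.49 within Lgr5-, -6.55 apart. Their median Lgr5 difference came to -4.70 within tuft marker+ but to 1.86 within tuft marker-, -6.56 apart. This was not tested either.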

How the results depend on the processing

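Of 72 recomputed counts of members, 61 stayed within 1.5 times the main count and 11 moved, and of 304 differences of single members 257 stayed within the scanner error, 47 moved and 0 changed the sign of a called value. With normexp, members at least 2-fold higher in Lgr5+ cells went from 6 to 1 within tuft marker+ and from 3 to 1 within tuft marker-, and members lower in tuft marker+ cells within Lgr5+ from 1 to 0. The offset of 50 is close to or above the processed signals of Bhlha15 and Prdm8, at most 65.1, and narrows ratios of dim spots: Bhlha15 then differed by 0.54 and 0.39 and Prdm8 by 0.74 and 0.72, still higher in Lgr5+ cells. At a 1.5-fold threshold the members higher in Lgr5+ cells within tuft marker- were 7, those lower in tuft marker+ cells 2 within Lgr5+ and 3 within Lgr5-, and those higher 1 (Klf4) within Lgr5+ and 1 (Foxa2) within Lgr5-. Shares of all genes at 1.5-fold were computed only for both comparisons of a sort together. There 6 members, with Gfi1 by its brighter probe, were higher in both Lgr5 comparisons, against 2.37% of genes. Foxa3 was lower in both tuft marker comparisons, against 4.74% of genes. Klf4 also passed 2-fold within Lgr5+, 1 against 0, under scaling to the median and in the authors' scaling, and Foxa1 joined Foxa3, 2 against 1, within Lgr5- under scaling to the median; the cause was not tested. Bhlha15, Foxa2 and Prdm8 were past 2-fold in both Lgr5 comparisons under the 7 other alternatives run at that threshold. Scaling to the median moved the median of genes above background on all arrays by 0.10, -0.23, 0.22 and -0.11 (tuft marker sort within Lgr5+ and Lgr5-, Lgr5 sort within tuft marker+ and tuft marker-). The authors' scaling moved it by 0.30 and -0.17 for the tuft marker sort within Lgr5- and the Lgr5 sort within tuft marker+, and the added percentile by 0.12 for the former. No paired analysis was possible because each population is 1 array, and no array could be left out. Signal over background limits Bhlha15 and Prdm8 to bounds, and 1 array per population leaves the spread between animals unmeasured.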
